A study of Neogale vison with 6 samples.

Results

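The genes described here encode carriers that move sugars, monocarboxylates, inorganic ions and metals across membranes. They were chosen by symbol alone, as every row of the count table whose gene symbol begins with SLC2A, SLC4A, SLC5A, SLC8A, SLC9A, SLC11A, SLC12A, SLC16A, SLC24A, SLC26A, SLC30A, SLC31A, SLC39A or SLC40A followed by a number. This rule took 103 of the 24526 genes in the table, of which 99 are carriers of these 14 families and 4 carry a family name without being carriers. RNA was sequenced from Mv1Lu, a cell line from mink lung that the study treats as epithelial, with 3 libraries of cells left untreated (control) and 3 after cholesterol depletion (CD). For CD, the cells had spent 16 h with 50 μM of the HMG-CoA reductase inhibitor lovastatin and 50 μM mevalonate, in medium with 10% lipoprotein-deficient serum (LPDS). The control cells received neither agent, so the comparison covers lovastatin, mevalonate and LPDS together. All libraries come from 1 line, and the labels do not say whether replicates were separate cultures, so the p-values measure the spread between these libraries.

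The line was checked against a few markers of cell type, on the scale of CPM (counts relative to the TMM-scaled number of reads on genes). Each library had between 13473820 and 18633764 reads counted on genes, so that 1 read was worth 0.0551 to 0.0723 CPM. Of 6 epithelial markers listed, 4 were found. No row carried the symbol of the keratin genes KRT8 or KRT18, so their levels are not known. The epithelial keratin KRT19 was at 914, 883 and 1011 CPM in control and lower in CD, at 379, 464 and 533 CPM (log2 fold change -1.03, FDR 2.74e-04, edgeR). The tight junction gene CLDN4 was higher in CD (log2 fold change 3.55, FDR 9.61e-06, edgeR) but did not exceed 8.04 CPM. The epithelial adhesion genes CDH1 and EPCAM were nearly absent, at no more than 0.432 and 0.287 CPM. Their levels go against an epithelial label, while that of KRT19 does not. All 5 mesenchymal markers listed were found. The filament gene VIM was at 3690.4 to 4788 CPM and was not called (log2 fold change 0.029), while COL1A1, COL1A2 and PDGFRB were lower in CD (log2 fold changes of -0.93, -0.37 and -1.08, FDR 9.45e-04, 0.0403 and 0.00163, edgeR) and DCN did not exceed 0.491 CPM. Of 4 immune markers listed, 3 were found. CD68 and CD14 were higher in CD (log2 fold changes of 1.85 and 2.37, FDR 2.49e-05 and 0.00141, edgeR), PTPRC had 0 counts in all libraries but CD replicate 3, and the summed level of these 3 markers was 5.20 to 5.84 CPM in control and 17.6 to 23.3 CPM in CD. Of 4 endothelial markers, VWF was higher in CD (log2 fold change 3.38, FDR 8.82e-04, edgeR), from at most 0.165 CPM in control to at most 1.66 CPM in CD, and PECAM1 had no counts in control and at most 0.307 CPM in CD. KDR had 3 counts over the control and 1 over the CD libraries, and CDH5 had 0 and 1. Their part in the results was not tested, and in such bulk RNA fewer cells of a type cannot be told apart from less RNA per cell.

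Solute carriers of these families work without ATP of their own. Facilitative carriers let glucose run down its gradient, while the others exchange or cotransport ions and use the sodium, proton and chloride gradients set up by the pumps. In an epithelium they supply fuel, remove lactate and acid, set cell volume and drive fluid secretion, and the zinc, iron and copper carriers hold these metals at low free levels in the cytosol. ZIP carriers (SLC39A) bring zinc into the cytosol and ZNT carriers (SLC30A) take it out.

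Fewer of the transporter genes were higher than lower in CD. Values after ± are standard errors of the log2 fold change. Of the 103 genes, 58 had enough reads for a test, that is they passed the default filter of edgeR, of about 10 counts in 3 libraries. Of these 58, 9 were higher and 18 lower in CD at an FDR (Benjamini-Hochberg over all 12148 genes tested) under 0.05 (edgeR, quasi-likelihood test), and 31 were not called. This corresponds to 15.5% higher and 31.03% lower, beside 24.8% higher and 22.9% lower among all genes tested. In all, 46.6% of the transporter genes and 47.7% of all genes tested were called. The median log2 fold change of the 58 genes was -0.32, and that of all tested genes was 0.06. Among the called genes, 1 rose at least 2-fold, SLC5A10, and 4 fell by as much, SLC8A1, SLC16A13, SLC24A3 and SLC16A10. For 32 of the 58 genes (55.2%) the CD libraries all lay on one side of the control libraries, beside 58.0% of all genes tested. The 27 called genes all belong to these 32. For a single gene, the smallest two-sided p of an exact permutation test with 3 libraries a side is 0.1, and the FDR values given here draw on a spread estimated by edgeR from all genes. Both counts depend on single libraries. The number of higher genes was 4, 3 and 5 without control replicate 1, control replicate 2 and CD replicate 2, and 14 without CD replicate 3, and the number of lower genes was 9 without control replicate 3 (edgeR).

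**Figure D1:**
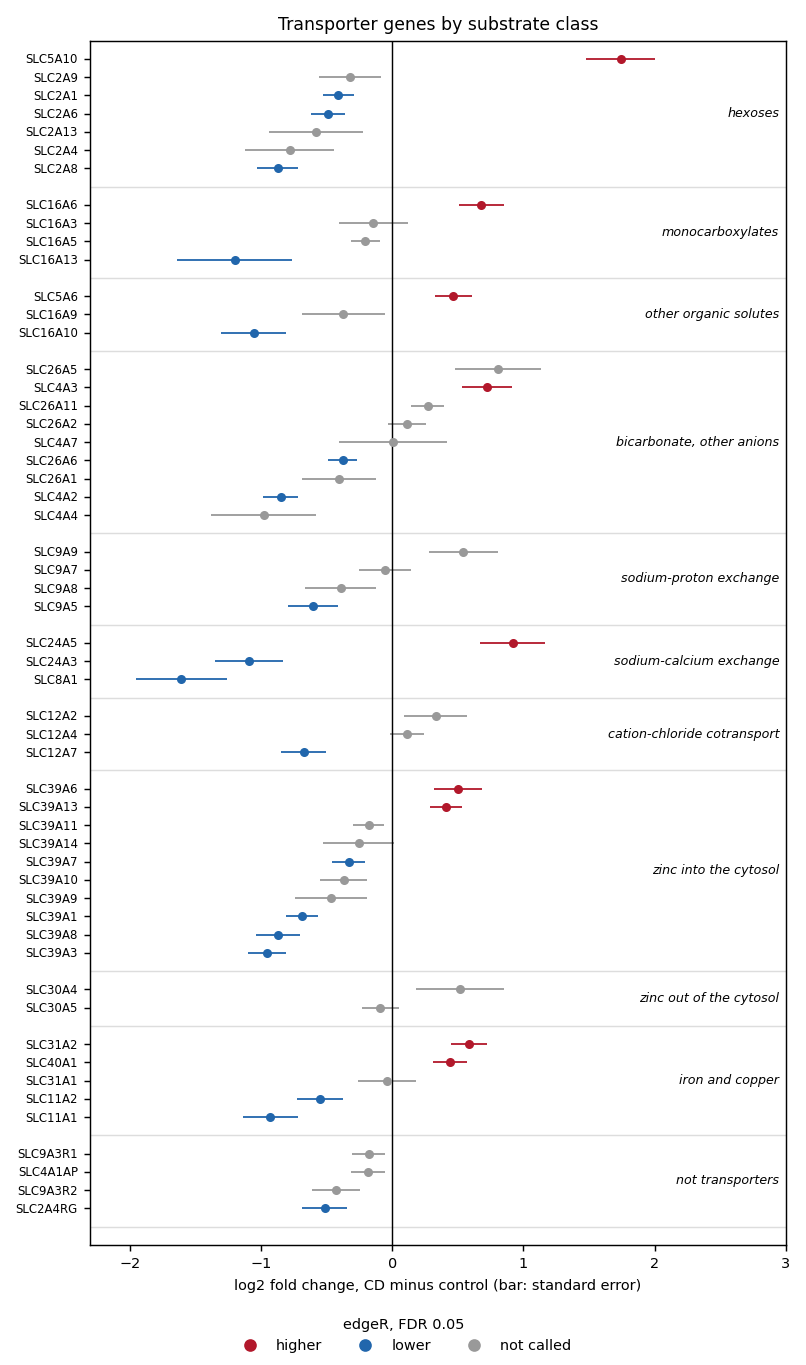
Log2 fold change of CD against control for 54 of the 58 tested genes, grouped by substrate; points are the fitted values, bars the standard errors, and red, blue and grey mark genes called higher, called lower and not called (edgeR, FDR under 0.05). SLC5A10 at 1.74 and SLC8A1 at -1.61 are the ends of the range, and 37 of the 54 points lie left of 0.

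The transporter genes together drew a smaller part of the reads in CD. They held 0.553%, 0.538% and 0.595% of the reads counted on genes in the control libraries and 0.493%, 0.495% and 0.418% in the CD libraries, so the groups did not overlap. The 3 genes with the most reads were SLC4A2, SLC2A1 and SLC9A3R1, of which SLC9A3R1 matches by name without being a carrier. They accounted for 50.6% to 51.8% of the reads on all 103 genes in control and 42.4% to 46.5% in CD. Without these 3 genes the shares were 0.262% to 0.294% in control and 0.224% to 0.284% in CD, and the groups overlapped. Among the 13 transporter genes with a control mean of at least 100 CPM, SLC9A3R1 included, 2 were higher and 7 lower (53.8%). Among the 2278 genes of the table at such levels, 361 were higher and 903 lower (39.6%). This level was chosen after the values had been seen.

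The CD libraries differed more among themselves than the control libraries. The highest of the 3 CD values of a gene was a median of 1.39 times the lowest over the 58 transporter genes, beside 1.19 in control. Over all genes tested these medians were nearly the same, 1.39 in CD and 1.18 in control. CD replicate 3 gave the lowest CD value for 38 of the 58 genes (65.5%), and for 41.0% of all genes tested. This held for 6 of 6 tested sodium-proton exchangers and 4 of 4 cation-chloride cotransporters, but for 1 of 7 hexose carriers. In this library 9.37% of all reads were unmapped, against 3.54% and 4.33% in CD replicates 1 and 2 and 4.25% to 18.4% in control, and the relation of these shares to the levels was not tested. Without CD replicate 3 more genes were called in the whole table, 3616 higher and 3606 lower in place of 3016 and 2784. Of the 58 transporter genes, 5 more were then higher, among them SLC26A5, SLC9A9 and SLC30A4, with log2 fold changes of 1.03, 0.63 and 0.74 and an FDR of at most 0.0477 (edgeR). Another 4 of the 58 became lower without it, among them SLC4A4, SLC2A4 and SLC9A3R2, with log2 fold changes of -0.64, -0.96 and -0.60 and an FDR of at most 0.00949. Without CD replicate 1, SLC26A11 was called higher (FDR 0.0201, edgeR), and SLC2A13, SLC39A9, SLC39A10 and SLC4A4 were among those called lower (FDR at most 0.0327).

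**Figure D2:**
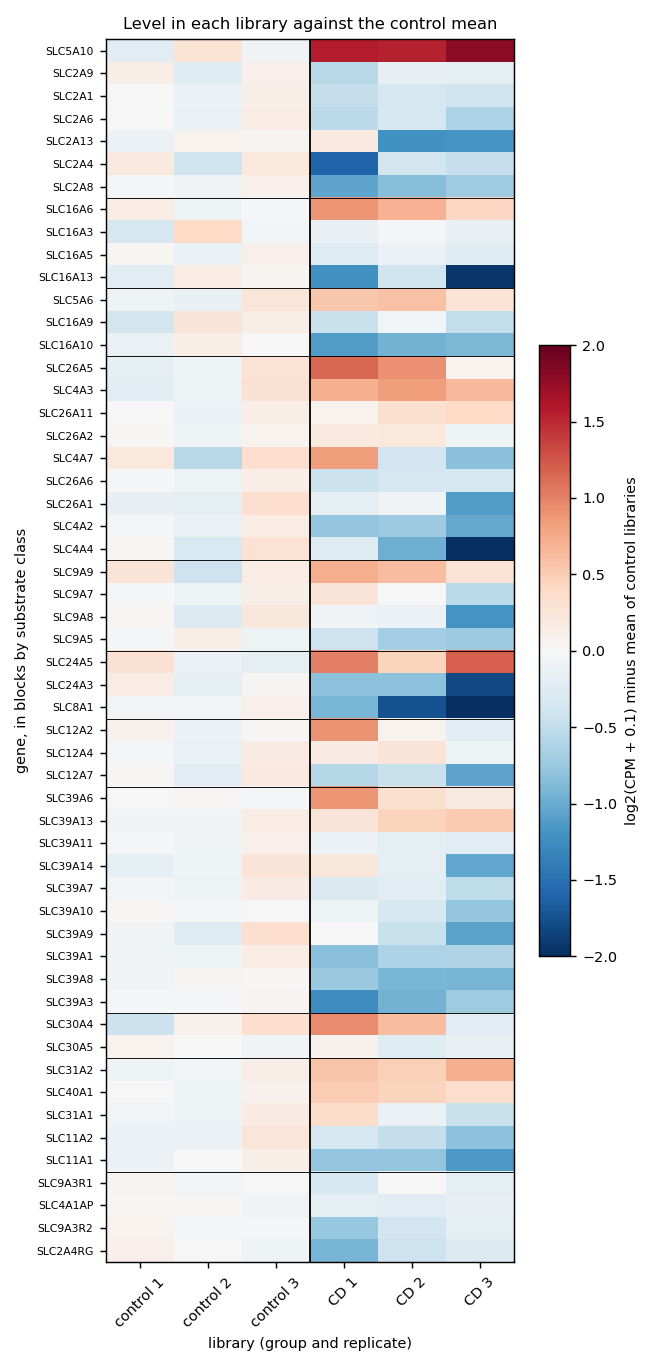
Level of 54 of the 58 tested genes (rows, in blocks by substrate) in each of the 6 libraries (columns), as log2(CPM + 0.1) minus the mean of the control libraries; red is above and blue below that mean, and colors saturate at -2 and 2. The subtraction centers the control columns, so their paler color beside the CD columns is in part set by it. The column of CD replicate 3 is the lowest of the CD columns for 34 of the 54 genes drawn.

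Of 15 genes for carriers of hexoses and inositol, 7 were tested, and 1 was higher and 3 lower in CD, with a median log2 fold change of -0.49. SLC2A1 encodes GLUT1, the basal glucose carrier of most cells, and held the most reads of this class. It was at 1042, 951 and 1125 CPM in control replicates 1, 2 and 3 and at 745, 809 and 789 CPM in CD replicates 1, 2 and 3. All CD libraries lay below all control libraries, and SLC2A1 fell by 0.41 on the log2 scale (standard error 0.12, FDR 0.0155, edgeR). SLC2A8 (GLUT8) and SLC2A6 (GLUT6), hexose carriers of intracellular membranes, fell as well. SLC2A8 was at 21.9, 21.1 and 23.7 CPM in control and 10.6, 12.3 and 13.5 CPM in CD, so that the highest CD value was well under the lowest control value (log2 fold change -0.87 ± 0.16, FDR 0.00129, edgeR). For SLC2A6 the change was smaller, with a log2 fold change of -0.49 ± 0.13 (FDR 0.00995, edgeR). The gene that rose was SLC5A10, which encodes the sodium-coupled sugar carrier SGLT5, known from kidney. It was counted 35 times in the control and 119 times in the CD libraries. This corresponds to 0.645, 0.940 and 0.716 CPM in control and 2.46, 2.39 and 2.88 CPM in CD, with no overlap, and to a log2 fold change of 1.74 ± 0.26 (FDR 4.21e-04, edgeR), or 3.34-fold. Its level stayed low in both groups. The insulin-regulated carrier gene SLC2A4 (GLUT4), the inositol carrier gene SLC2A13 and the urate carrier gene SLC2A9 had log2 fold changes of -0.78, -0.58 and -0.32 and were not called (FDR 0.0840, 0.206 and 0.291, edgeR). For SLC2A13 the value was -1.22 without CD replicate 1 (FDR 0.00159, edgeR) and -0.37 without CD replicate 2. SLC2A1 was not called without control replicate 1 or control replicate 3 (FDR 0.0662 and 0.0740, edgeR). SLC2A6 was not called without control replicate 3 (FDR 0.0586, edgeR). SLC2A3, for the glucose carrier GLUT3, was not analysed here.

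Of 10 genes for monocarboxylate carriers, 4 were tested, of which 1 was higher and 1 lower. SLC16A6, whose product MCT7 carries ketone bodies, rose from 14.5, 12.1 and 12.8 CPM in control to 24.2, 21.3 and 17.5 CPM in CD (log2 fold change 0.68 ± 0.17, FDR 0.00853, edgeR). The lowest CD library was above the highest control library. SLC16A13 (MCT13) fell by 1.20 on the log2 scale (standard error 0.44, FDR 0.0460, edgeR), on 39 counts in all in control and 17 in CD. Leaving out 1 library put this value between -1.87 (without CD replicate 2) and -0.90 (without CD replicate 3). It was at 0.716, 0.940 and 0.882 CPM in control and at 0.307, 0.613 and 0.144 CPM in CD, where 1 count was worth 0.0613 to 0.0720 CPM. Most reads of the class fell on SLC16A5 (MCT6), with 219, 194 and 228 CPM in control and 179, 196 and 181 CPM in CD. These groups overlapped, and the gene was not called (log2 fold change -0.21 ± 0.11, FDR 0.1503, edgeR). SLC16A3, which encodes the lactate exporter MCT4 of glycolytic cells, was low throughout, between 1.43 and 2.46 CPM, and was not called (FDR 0.678, edgeR). SLC16A13 was not called by DESeq2, edgeR with upper-quartile scaling or edgeR with total counts as the only scaling (FDR 0.156, 0.0520 and 0.0581) and not without control replicate 1, control replicate 2, control replicate 3, CD replicate 1 or CD replicate 3 (FDR 0.0708, 0.119, 0.127, 0.109 and 0.0829, edgeR). SLC16A1, for the widespread lactate carrier MCT1, was not analysed here.

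Another 6 genes of the same families carry other organic solutes, and 4 of them were tested. SLC5A6 encodes SMVT, which takes up biotin and pantothenate. It rose from 251, 242 and 316 CPM in control to 391, 402 and 325 CPM in CD, a log2 fold change of 0.47 ± 0.14 (FDR 0.0200, edgeR). The groups came close, since the highest control library lay just under the lowest CD library. SLC16A10, for the aromatic amino acid carrier TAT1, fell from 1.79, 2.17 and 1.98 CPM to 0.860, 0.982 and 1.01 CPM without overlap (log2 fold change -1.06 ± 0.25, FDR 0.00559, edgeR). SLC16A9 was not called (log2 fold change -0.37, FDR 0.356, edgeR). SLC5A6 was not called without control replicate 1, control replicate 2 or CD replicate 2 (FDR 0.0960, 0.0933 and 0.0874, edgeR).

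Of 21 genes for carriers of bicarbonate and other anions, 9 were tested, with 1 higher, 2 lower and a median log2 fold change of 0.0068. SLC4A2 encodes AE2, a chloride-bicarbonate exchanger that loads acid into the cell, and had the most reads of the class. It was at 981, 914 and 1113 CPM in control and 577, 603 and 489 CPM in CD. Every CD library lay far under every control library, and SLC4A2 fell by 0.85 on the log2 scale (standard error 0.13, FDR 5.24e-04, edgeR). Its paralog SLC4A3 (AE3) moved the other way, from 6.38, 6.87 and 9.15 CPM to 12.2, 13.2 and 11.7 CPM (log2 fold change 0.72 ± 0.19, FDR 0.0108, edgeR). SLC26A6, an exchanger of chloride, oxalate and bicarbonate, fell from 104, 98.8 and 116 CPM to 78.7, 83.6 and 83.1 CPM (log2 fold change -0.38 ± 0.11, FDR 0.0185, edgeR). The sodium-bicarbonate cotransporter gene SLC4A4 (NBCe1) was at 10.96, 8.67 and 13.1 CPM in control and at 9.03, 5.40 and 2.09 CPM in CD. Its CD values spanned a range of 4.32 times and overlapped control, and it was not called (log2 fold change -0.98 ± 0.40, FDR 0.0683, edgeR), although DESeq2, limma-voom and edgeR with DESeq2 size factors called it lower (FDR 0.0226, 0.0399 and 0.0494). The log2 fold changes of the other uncalled genes were 0.81 for SLC26A5 (prestin), 0.27 and 0.11 for the sulfate carrier genes SLC26A11 and SLC26A2, -0.41 for SLC26A1 and 0.0068 for SLC4A7. The value of SLC4A7, which is also the median of the class, was -0.64 without CD replicate 1 and -0.23 without control replicate 2. SLC26A11 was also called higher with total counts as the only scaling (FDR 0.0497, edgeR). SLC26A6 was not called without control replicate 1 or control replicate 3 (FDR 0.0639 and 0.0964, edgeR). SLC4A3 was not called without control replicate 1 or control replicate 2 (FDR 0.0647 and 0.0543, edgeR).

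Sodium-proton exchangers expel acid from the cytosol or adjust the pH of endosomes and the Golgi. Of their 9 genes, 6 were tested and 1 was lower. SLC9A5 (NHE5) fell from 6.59, 7.37 and 6.23 CPM to 5.04, 4.17 and 4.03 CPM (log2 fold change -0.60 ± 0.19, FDR 0.0256, edgeR). Genes of organellar exchangers were not called, with log2 fold changes of 0.54 for SLC9A9, of endosomes, and -0.053 and -0.39 for SLC9A7 and SLC9A8, of the Golgi. For SLC9A9 the CD libraries lay above the control libraries, at 3.01, 2.76 and 2.16 against 2.15, 1.301 and 1.98 CPM, with an FDR of 0.113 (edgeR). SLC9A5 was not called without control replicate 1, control replicate 2, control replicate 3 or CD replicate 2 (FDR 0.0749, 0.0950, 0.0561 and 0.0671, edgeR).

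All 3 tested genes for sodium-calcium exchangers were called, out of 8 in the table. SLC8A1 encodes NCX1, which expels calcium in exchange for sodium, and had the lowest log2 fold change of the 58 transporter genes that passed the filter. It was at 20.8, 20.8 and 23.1 CPM in control and at 11.4, 6.38 and 3.31 CPM in CD. The control values were close together, while the CD values differed by up to 3.45 times, all of them below control (log2 fold change -1.61 ± 0.34, FDR 0.00353, edgeR). Leaving out any 1 library put the value for SLC8A1 between -2.13 and -1.32. SLC24A3 encodes the potassium-dependent exchanger NCKX3. It fell from 14.4, 11.3 and 13.6 CPM to 7.31, 7.36 and 3.67 CPM (log2 fold change -1.09 ± 0.26, FDR 0.00617, edgeR), again with CD replicate 3 the lowest. SLC24A5, for the exchanger NCKX5 of pigment granules and the trans-Golgi network, rose instead, from 5.16, 3.83 and 3.69 CPM to 8.54, 5.71 and 9.72 CPM (log2 fold change 0.92 ± 0.25, FDR 0.0120, edgeR). Its lowest CD value, in CD replicate 2, was close to its highest control value. SLC24A5 was not called without control replicate 2 or control replicate 3 (FDR 0.0554 and 0.0642, edgeR).

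Cation-chloride cotransporters set cell volume and intracellular chloride. Of their 7 genes, 4 were tested and 1 was lower. SLC12A7 (KCC4), for a potassium-chloride cotransporter that releases salt from swollen cells, was at 129, 111 and 146 CPM in control and 86.2, 94.2 and 61.4 CPM in CD, with no overlap (log2 fold change -0.67 ± 0.17, FDR 0.00871, edgeR). SLC12A4 (KCC1), with the most reads of the class, was at 265, 249 and 305 CPM and 306, 324 and 256 CPM and was not called (log2 fold change 0.11 ± 0.13, FDR 0.503, edgeR). SLC12A2 encodes NKCC1, which loads epithelial cells with sodium, potassium and chloride. It was at 108, 92.8 and 103 CPM in control and at 187, 106 and 87.5 CPM in CD. CD replicate 1 lay far above control, CD replicate 2 within the control range and CD replicate 3 just below it. SLC12A2 was not called (log2 fold change 0.33 ± 0.24, FDR 0.280, edgeR), and the sign turned without CD replicate 1 (-0.049). SLC12A7 was not called without control replicate 3 (FDR 0.0504, edgeR).

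Zinc importers of the ZIP family formed the largest tested class. Of 12 genes, 10 were tested, 2 were higher and 4 lower, and the median log2 fold change was -0.35. SLC39A1 (ZIP1), an importer at the plasma membrane and the ZIP gene with the most reads, was at 305, 301 and 355 CPM in control and 179, 208 and 210.3 CPM in CD. It fell in CD (log2 fold change -0.69 ± 0.12, FDR 0.00107, edgeR). SLC39A3 (ZIP3), from 103, 102 and 109 CPM in control to 44.4, 54.0 and 63.9 CPM in CD, showed the lowest log2 fold change of the class, -0.95 (standard error 0.14, FDR 4.27e-04, edgeR). SLC39A8 (ZIP8), which also imports manganese, fell from 10.9, 12 and 11.6 CPM to 6.82, 6.07 and 5.98 CPM (log2 fold change -0.87 ± 0.17, FDR 0.00196, edgeR). For these 3 genes the groups were well apart. SLC39A7 (ZIP7), which releases zinc from the endoplasmic reticulum, fell less (log2 fold change -0.33 ± 0.12, FDR 0.0496, edgeR), from 169.7, 165 and 197 CPM to 145, 153 and 125 CPM. The genes that rose were SLC39A13 (ZIP13), of the secretory pathway, and SLC39A6 (ZIP6). SLC39A13 was at 143, 143 and 166 CPM in control and 179, 206 and 216 CPM in CD (log2 fold change 0.41 ± 0.12, FDR 0.0173, edgeR). For SLC39A6, with 34.8, 35.8 and 34.5 CPM in control and 65.0, 43.8 and 39.7 CPM in CD, the increase was largest in CD replicate 1 (log2 fold change 0.50 ± 0.18, FDR 0.0444, edgeR). The uncalled genes SLC39A9, SLC39A10, SLC39A11 and SLC39A14 had log2 fold changes between -0.47 and -0.18.

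Whether SLC39A7, SLC39A6 and SLC39A13 were called depended on the setting and on single libraries. SLC39A7 was not called by limma-voom, edgeR with upper-quartile scaling, edgeR with total counts as the only scaling or edgeR without the filter (FDR 0.0513, 0.0552, 0.0620 and 0.0504) and not without control replicate 1, control replicate 2 or control replicate 3 (FDR 0.101, 0.0694 and 0.1999, edgeR). SLC39A6 was not called by limma-voom or edgeR with total counts as the only scaling (FDR 0.0585 and 0.0696) and not without control replicate 1, control replicate 2, control replicate 3, CD replicate 1 or CD replicate 2 (FDR 0.118, 0.108, 0.132, 0.114 and 0.0591, edgeR). Its log2 fold change was 0.26 without CD replicate 1. SLC39A13 was not called without control replicate 1, control replicate 2 or CD replicate 2 (FDR 0.0914, 0.0762 and 0.0787, edgeR).

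Of 6 genes for zinc carriers out of the cytosol (ZNT family), 2 were tested and neither was called. SLC30A5 (ZNT5), of the early secretory pathway, was at 31.7, 29.99 and 28.7 CPM in control and 32.1, 25.5 and 27.1 CPM in CD (log2 fold change -0.092 ± 0.14, FDR 0.617, edgeR). SLC30A4 (ZNT4), of vesicles, had a log2 fold change of 0.51 ± 0.33 (FDR 0.231, edgeR). SLC30A1, for the zinc exporter of the plasma membrane, was not analysed here.

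Of the 5 iron and copper carrier genes, all were tested, and 2 were higher and 2 lower. Of the iron genes, SLC11A2 encodes DMT1, which brings iron and other divalent metals into the cytosol, and SLC40A1 encodes ferroportin, the iron exporter. SLC11A2 fell from 25.1, 25.4 and 32.3 CPM in control to 21.4, 19.6 and 15.6 CPM in CD (log2 fold change -0.55 ± 0.17, FDR 0.0240, edgeR). SLC40A1 rose from 28.4, 26.7 and 30.03 CPM to 40.6, 38.8 and 36.2 CPM (log2 fold change 0.44 ± 0.13, FDR 0.0160, edgeR). The groups did not overlap for either gene. SLC11A1 (NRAMP1), a metal carrier best known from phagosomes of macrophages, fell from 4.37, 4.77 and 5.18 CPM to 2.704, 2.699 and 2.09 CPM (log2 fold change -0.93 ± 0.21, FDR 0.00465, edgeR), while the macrophage marker CD68 was higher in CD. Of the copper carrier genes, SLC31A2 (CTR2), of endosomes and lysosomes, rose from 22.3, 22.8 and 25.7 CPM to 35.0, 32.8 and 38.4 CPM (log2 fold change 0.59 ± 0.14, FDR 0.00545, edgeR). SLC31A1 (CTR1), the copper importer of the plasma membrane, was at 11.97, 11.6 and 13.9 CPM in control and 16.0, 11.3 and 9.08 CPM in CD, with overlap (log2 fold change -0.039 ± 0.22, FDR 0.898, edgeR). SLC11A2 was not called without control replicate 3 (FDR 0.125, edgeR). SLC40A1 was not called without control replicate 1, control replicate 2 or CD replicate 2 (FDR 0.0701, 0.0751 and 0.0613, edgeR).

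**Figure D3:**
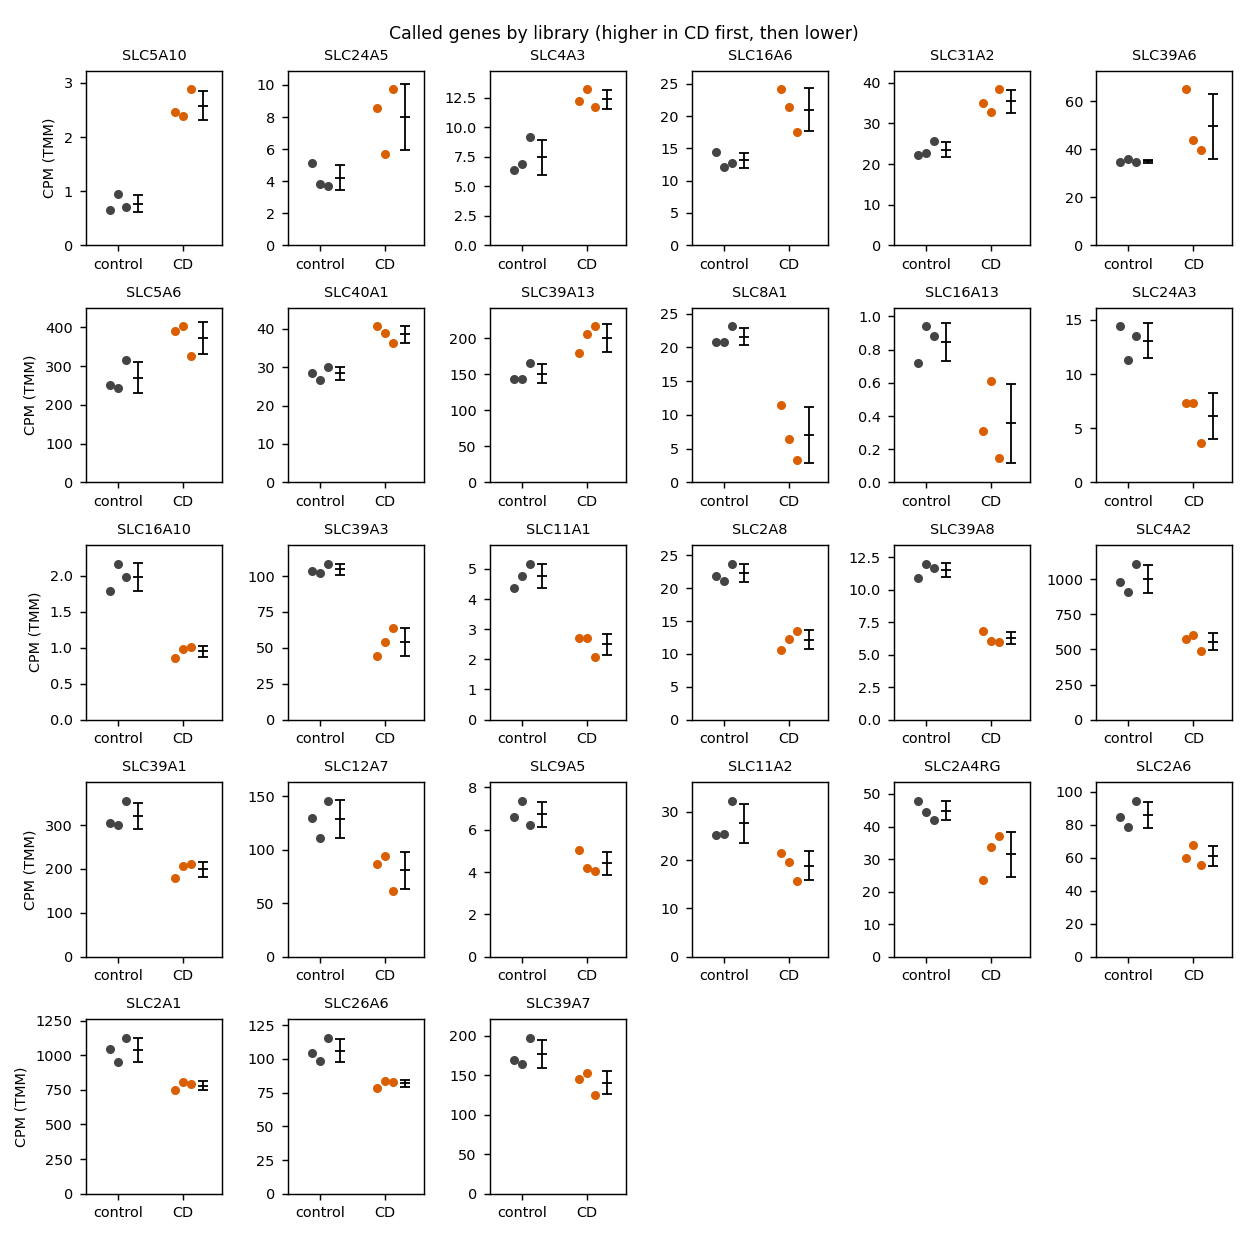
Level in CPM (TMM, linear axes from 0) of the 27 called genes in the control (grey) and CD (orange) libraries, one point per library, with the mean and SD beside the points. The first 9 panels are the genes called higher in CD and the other 18 those called lower, and in each panel the 3 CD points lie on one side of the 3 control points.

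The 4 genes that match the family names without being carriers were all tested. SLC9A3R1 encodes NHERF1, a PDZ scaffold that ties exchangers and channels to ezrin, and was at 888, 824 and 852 CPM in control and 667, 856 and 743 CPM in CD. It was not called (log2 fold change -0.18 ± 0.13, FDR 0.268, edgeR), nor were the related scaffold gene SLC9A3R2 (-0.43, FDR 0.0784) and SLC4A1AP (-0.19, FDR 0.269), although for both of the latter all CD libraries lay below control. SLC2A4RG, for a DNA-binding regulator of SLC2A4, fell from 47.9, 44.6 and 42.1 CPM to 23.5, 33.7 and 37.0 CPM (log2 fold change -0.52 ± 0.17, FDR 0.0315, edgeR). SLC2A4RG was not called without control replicate 1, control replicate 2, control replicate 3, CD replicate 1 or CD replicate 2 (FDR 0.110, 0.0821, 0.0666, 0.0644 and 0.0529, edgeR). Its log2 fold change was -0.33 without CD replicate 1. Without these 4 genes, 9 of 54 tested carriers were higher and 17 lower.

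The remaining 45 genes had too few reads for the test. No read was counted for 10 of them, SLC2A10, SLC4A1, SLC5A1, SLC5A4, SLC5A12, SLC9A2, SLC12A1, SLC16A8, SLC26A9 and SLC30A10. Over all 6 libraries, 27 had 1 to 10 counts, and 8 had more, up to 56 for SLC12A8. The 27 were SLC2A2, SLC2A12, SLC4A10, SLC5A2, SLC5A5, SLC5A7, SLC5A8, SLC5A9, SLC5A11, SLC8A3, SLC9A3, SLC9A4, SLC12A3, SLC16A4, SLC16A11, SLC16A12, SLC16A14, SLC24A1, SLC24A2, SLC24A4, SLC26A3, SLC26A4, SLC26A7, SLC26A8, SLC30A2, SLC30A8 and SLC39A4. SLC4A5, SLC4A8, SLC4A9, SLC4A11 and SLC30A3 had 23, 31, 15, 29 and 16 counts. When no filter was applied, edgeR called 4 of the 45. SLC12A8, a family member of unsettled transport role, was lower, with 42 counts in control and 14 in CD (FDR 0.00886, edgeR without filter), and so was SLC39A5 (ZIP5), with 14 and 2 counts (FDR 0.0335). The ratio of CD to control was 0.330 for SLC12A8 (95% Clopper-Pearson interval for counting error 0.166 to 0.616) and 0.141 for SLC39A5 (0.0156 to 0.615). The sodium-calcium exchanger genes SLC8A2 (NCX2) and SLC8A3 (NCX3) were higher. SLC8A2 had 2 counts in control and 15 in CD, a ratio of 7.42 (1.72 to 66.8; FDR 0.0297, edgeR without filter). SLC8A3 had 0 counts in control and 7 in CD (FDR 0.0458, edgeR without filter). Taking 3 counts as the most that the control total of 0 allows, the ratio was 2.31. This value treats the 7 CD counts as exact, so it is not a lower bound on the change. DESeq2 called none of the 4, with an adjusted p of 0.0560, 0.117 and 0.118 for SLC12A8, SLC39A5 and SLC8A2 and none computed for SLC8A3.

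To see the carriers beside the proteins they work with, 40 partner genes were listed by function, of which 35 were found by symbol and 29 tested. Of the 29, 7 were higher and 8 lower in CD, beside 24.8% higher and 22.9% lower among all genes tested, and the median log2 fold change was 0.18. TXNIP encodes an arrestin-like protein that removes GLUT1 from the cell surface when glucose is plentiful, and rose from 1.86, 1.45 and 1.16 CPM in control to 13.4, 17.3 and 10.4 CPM in CD (log2 fold change 3.21 ± 0.27, FDR 1.12e-05, edgeR). SLC2A1 was lower in the same libraries. Of the genes around the traffic of glucose carriers, STX4, for a SNARE of vesicle fusion at the surface, rose (log2 fold change 0.54, FDR 0.00701, edgeR) and TBC1D4, for a protein that switches Rab GTPases off and holds GLUT4 inside the cell, fell (log2 fold change -1.08, FDR 0.00629). EMB, for the MCT chaperone embigin, was at 969.6, 904 and 906 CPM in control and 985, 941 and 1226 CPM in CD and was not called (FDR 0.285, edgeR), like RAB10 (0.24, FDR 0.108).

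Next to the acid and bicarbonate carriers, CHP1, for the calcineurin-like subunit of sodium-proton exchangers, rose from 116, 117 and 115 CPM to 195, 191 and 193 CPM (log2 fold change 0.74 ± 0.099, FDR 2.13e-04, edgeR). Of 4 carbonic anhydrase genes found, both that could be tested fell. CA9, whose enzyme faces the outside of the cell, went from 492, 431 and 509 CPM to 159, 192 and 209 CPM (log2 fold change -1.35 ± 0.13, FDR 3.01e-05, edgeR), and CA13 had a log2 fold change of -0.82 (FDR 0.00474). The groups were far apart for CHP1 and CA9. Of the genes around the cation-chloride cotransporters, the kinase gene WNK2 fell from 23.6, 21.7 and 25.6 CPM to 5.96, 6.503 and 4.83 CPM (log2 fold change -2.03 ± 0.18, FDR 1.34e-05, edgeR). CAB39, for the scaffold that activates the kinases of these cotransporters, rose from 12.04, 12.6 and 12.2 CPM to 41.1, 30.5 and 28.0 CPM (log2 fold change 1.43 ± 0.17, FDR 1.12e-04, edgeR). The kinase gene WNK1 was at 112, 103 and 103 CPM in control and at 202, 127 and 53.2 CPM in CD, a span of 3.79 times between the CD libraries, and was not called (FDR 0.570, edgeR), although without CD replicate 3 it was (log2 fold change 0.59, FDR 0.00163). Without CD replicate 1 its sign turned (-0.23). STK39 and OXSR1, its downstream kinases, were not called, with log2 fold changes of 0.12 and 0.15. OXSR1 was called without CD replicate 3 (FDR 0.0471), as were EZR, ATP2B4 and CLCN3 (FDR 0.0227, 1.06e-05 and 0.00700, edgeR). Without CD replicate 1 the sign turned for OXSR1 (-0.083) and CLCN3 (-0.13). With all libraries the log2 fold changes of EZR, ATP2B4 and CLCN3 were 0.27, 0.39 and 0.25.

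Of the metal genes, ATP7B, a copper pump, fell from 47.0, 41.1 and 50.5 CPM to 17.5, 17.6 and 12.7 CPM (log2 fold change -1.54 ± 0.17, FDR 5.58e-05, edgeR), and ATP7A, the related pump, was not called (log2 fold change 0.12 ± 0.43, FDR 0.832, and -0.51 without CD replicate 1). STEAP3, the endosomal iron reductase gene, and TFRC, for the transferrin receptor, fell by 0.94 and 0.85 on the log2 scale (FDR 0.00223 and 0.0338, edgeR), in the same direction as SLC11A2, which acts next to them in iron uptake. ATOX1, a copper chaperone gene, rose (log2 fold change 0.66, FDR 0.0218, edgeR), with its highest level in CD replicate 3. The copper chaperone gene CCS, COMMD1 and the zinc sensor gene MTF1 were not called, with log2 fold changes of 0.25, 0.12 and 0.28. CCS was called without CD replicate 1 (FDR 0.0291, edgeR). Of the pumps and channels, ATP1B1 (log2 fold change 0.35, FDR 0.0190) and LRRC8A (0.61, FDR 0.0129) rose and ATP2A2 (-0.54, FDR 0.0273, edgeR) fell, while the calcium pump gene ATP2B1 was not called (0.13).

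Among the called partner genes, several calls depended on single libraries. TFRC was not called by edgeR with total counts as the only scaling or edgeR without the filter (FDR 0.0709 and 0.117) and not without control replicate 1, control replicate 2, control replicate 3 or CD replicate 2 (FDR 0.0817, 0.0634, 0.107 and 0.0842, edgeR). The log2 fold change of TFRC was -1.28 without CD replicate 1. ATP1B1 was not called without control replicate 1, control replicate 2, control replicate 3 or CD replicate 2 (FDR 0.117, 0.0570, 0.0539 and 0.0659, edgeR). ATP2A2 was not called by edgeR with total counts as the only scaling (FDR 0.0540) and not without control replicate 1, control replicate 2 or control replicate 3 (FDR 0.0625, 0.0521 and 0.110, edgeR). ATOX1 was not called without control replicate 2, control replicate 3 or CD replicate 2 (FDR 0.0733, 0.0919 and 0.0551, edgeR). The log2 fold change of ATOX1 was 0.35 without CD replicate 3. LRRC8A was not called without control replicate 1, control replicate 2 or CD replicate 2 (FDR 0.0510, 0.0662 and 0.0637, edgeR).

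**Figure D4:**
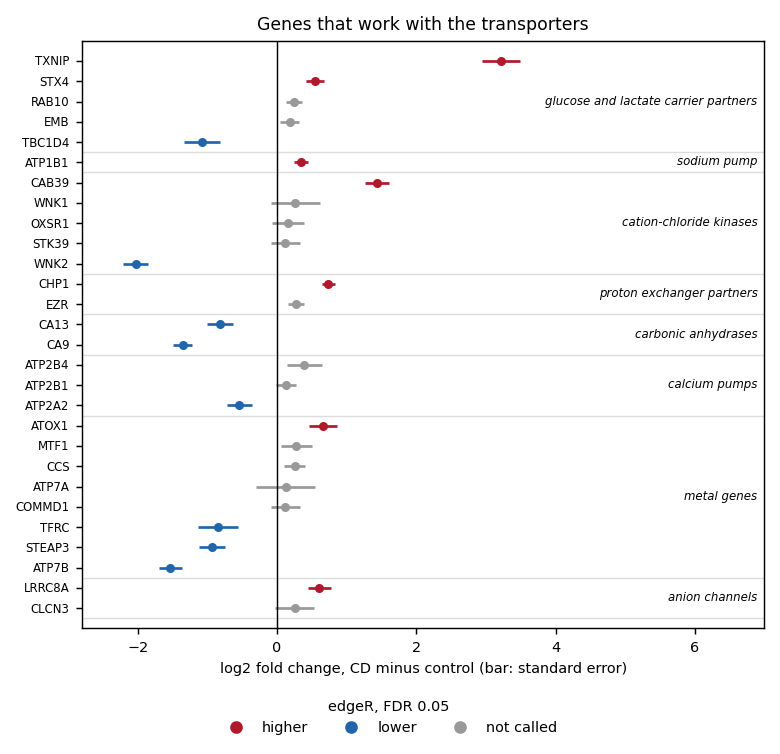
Log2 fold change of CD against control for 28 of the 29 tested partner genes, by function; points are the fitted values and bars the standard errors, with red, blue and grey for called higher, called lower and not called (edgeR, FDR under 0.05). TXNIP at 3.21 and WNK2 at -2.03 are the ends of the range.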

How the data were processed

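RNA was sequenced from 3 control and 3 CD libraries. The authors trimmed the reads with fastp (version 0.20.1), aligned them with STAR (version 2.7.2a) to the mink assembly NNQGG.v01 and deposited raw read counts per gene. The counting tool and its strand setting are not given in the sources used here, so reads of overlapping genes, antisense genes and near-identical paralogs may be shared. A deposited set of values normalized by the authors with DESeq2 (version 1.30.1) was not used. Groups were taken from the sample titles. The 4 rows that name no gene (unmapped, multimapping, ambiguous and outside genes) took 29.3% to 47.2% of the reads and were left out.

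The counts of 12148 genes that passed filterByExpr (minimum count 10, minimum total 15) were scaled by TMM and tested with the quasi-likelihood test of edgeR (version 4.0.16, R 4.3.3, robust), with group as the only term and Benjamini-Hochberg adjustment over all genes tested. The standard error is the absolute log2 fold change divided by the square root of F. Fold changes and errors are on the log2 scale, and levels are CPM after TMM. No transcript lengths were used, so rankings of genes by reads or CPM are not corrected for length. On simulated counts of 12114 genes, 91.7% of genes changed by 1 on the log2 scale and 100% of those changed by 2 were called in the right direction. The simulation gave every gene the same spread between replicates in both groups. It changed only 109 and 91 of the tested genes, drawn from those above 1 CPM. The shares therefore do not give the detection rate in these data, where the CD libraries differed more than the control libraries. Alternatives were DESeq2 (version 1.42.0), limma-voom (limma 3.58.1), other scalings and filters, a replicate block, an FDR of 0.01 and each library left out.

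The transporter genes, their substrate classes, the partner genes and the markers were chosen with earlier results of these data known. The text names every called transporter gene, with values in all libraries where the log2 fold change was at least 1 or the largest of its class, and the gene with the most reads of each class. A few tested genes are not reported here by name and are left out of the plots, but they are part of every count.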

Additional observations from a re-analysis of the deposited data

How the results depend on the processing

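Of the 27 calls, 3 of the 9 upward and 9 of the 18 downward ones held in every alternative setting in which the gene was tested, 14 settings for most genes and 13 for SLC5A10 and SLC16A10, which had too few counts for the minimum of 50. No called gene changed sign in any setting. Among the uncalled genes named, SLC4A7, SLC12A2, SLC31A1, SLC16A3, SLC9A7, WNK1, OXSR1, ATP7A, COMMD1 and CLCN3 changed sign in at least 1. With one library left out, the number of higher transporter genes ranged from 3 to 14 and that of lower ones from 9 to 22. At an FDR of 0.01, 3 transporter genes were higher and 11 lower, beside 2006 and 2036 of all genes (edgeR). The other tools, scalings and filters gave 8 to 11 higher and 16 to 19 lower genes. With the replicate number as a block, 8 were higher and 16 lower, and SLC26A6, SLC40A1, SLC9A5 and SLC39A7 were no longer called, while SLC4A4 was called lower. Of the partner genes, ATP1B1 was not called with the block (FDR 0.0703, edgeR). The numbers were not taken to pair the libraries, because the deviations of same-numbered libraries from their group means correlated at -0.020, -0.40 and -0.20 over the tested genes. Over all libraries left out, 42 of 348 single-gene values of 15 genes lost a call and 15 of 13 genes gained one, and over the other settings 13 and 5 of 454 did. The median log2 fold change of the transporter genes stayed between -0.40 (without CD replicate 2) and -0.21 (without CD replicate 3), and that of all tested genes between 0.016 and 0.090. Below about 1 CPM a value rests on fewer than 20 reads per library, which limits SLC5A10, SLC16A13 and SLC16A10. Statin, mevalonate and LPDS cannot be told apart, and the cause of the changes between settings was not tested.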
